A study of Mus musculus with 4 samples.

Results

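Enteroendocrine cells are the hormone-producing cells of the gut epithelium, and 10 genes of their hormones, amine transmitters, secretory granules and transcription factors were followed in sorted colon crypt cells. The 10 were chosen by symbol, for their roles (Chga, Chgb, Scg5, Cpe, Pyy, Gcg, Tph1, Ddc, Neurod1 and St18), with earlier results of these data known. All 10 were present among the 14519 genes of the deposited table. Reg4+ deep crypt secretory (DCS) cells, goblet-like cells of the crypt base, were sorted by a Reg4-dsRed reporter (2 libraries). They were set against Lgr5+ stem cells sorted by an Lgr5-GFP reporter (2 libraries). Both came from mouse colonic epithelium. The design text describes the pair of libraries of each population as biological replicates from repeated sorting, and no strain, age or treatment is stated in the labels. RNA was read by CEL-seq, which captures transcripts by their 3′ ends, and levels therefore do not grow with transcript length. They are given in RPM, which puts every library on 1 common total.

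Enteroendocrine cells arise from secretory progenitors of the crypt, through transcription factors that include Neurod1. They store their products in dense-core granules, whose matrix is formed by the chromogranins, and prohormones are cut and trimmed inside those granules before release. In the mouse colon the main kinds are L cells, which make the peptides of the Gcg and Pyy precursors, and enterochromaffin cells, which make serotonin with Tph1 and Ddc. They are rare among epithelial cells, and Reg4 itself is known from endocrine cells of the small intestine as well as from DCS cells.

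The highest level of any of the 10 genes was 84.0 RPM, that of Ddc in Lgr5+ library 2. Of the 10, 6 were tested. None of these was called higher in Reg4+ DCS cells, against 7.18% of all tested genes. Chga, Ddc and St18 were called lower there than in Lgr5+ cells, Pyy and Chgb did not pass the test, and Gcg differed more between replicate libraries than between the populations. The summed level of the 10 genes was 29.3 and 46.6 RPM in Reg4+ DCS libraries 1 and 2, against 184 and 130.5 RPM in Lgr5+ libraries 1 and 2. The sum takes the listed zeros of Scg5, Neurod1 and St18 in Reg4+ DCS libraries as 0. St18 made up 41.1 and 7.04 RPM of it in Lgr5+ libraries 1 and 2. Ddc alone made up 38.2% and 44.1% of that sum in Reg4+ DCS cells and 36.8% and 64.4% in Lgr5+ cells. In bulk libraries, fewer cells that express a gene and less RNA of it per cell cannot be told apart.

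**Figure D1:**
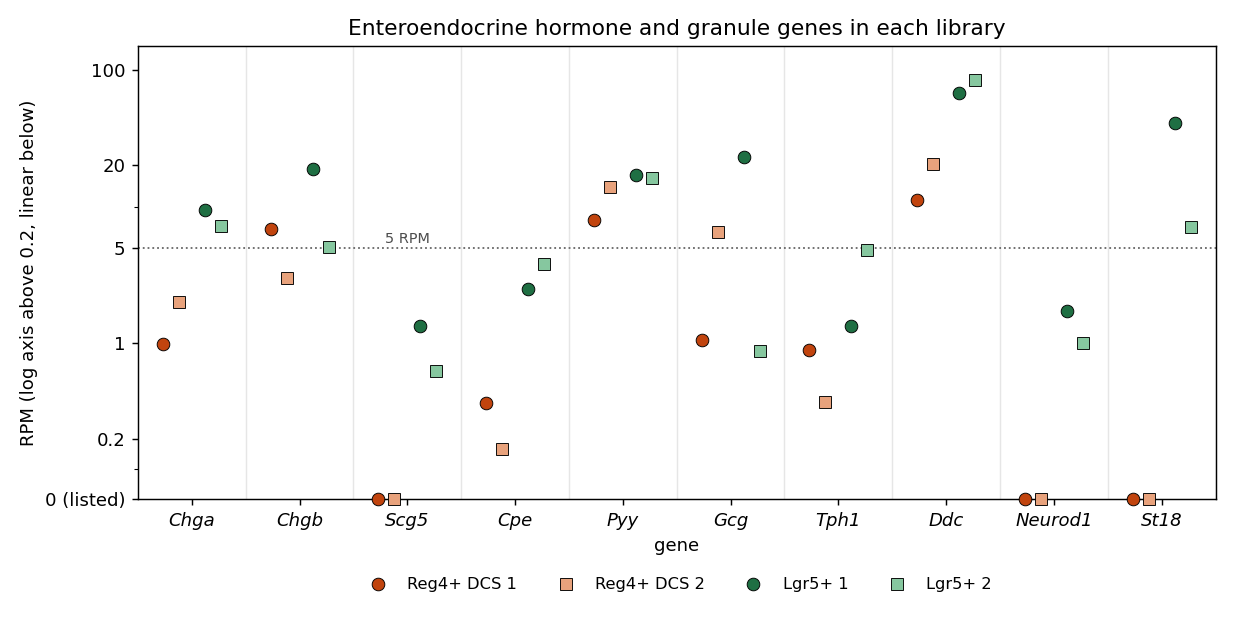
RPM of each gene (x axis) in each of the 4 libraries, on a y axis that is logarithmic above 0.2 RPM and linear below. The dotted line marks 5 RPM; Scg5, Neurod1 and St18 have listed values of 0 in both Reg4+ DCS libraries, and Ddc is the most abundant gene in Reg4+ DCS libraries and Lgr5+ libraries alike, from 11.2 to 84.0 RPM.

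A level of 5 RPM in at least 2 of the 4 columns was needed for the test, and 6 of the 10 genes reached it: Chga, Chgb, Pyy, Gcg, Ddc and St18. Chga and St18 reached it through the Lgr5+ columns alone, so that passing already required them to be higher there, and their calls are described with that in view. Cpe, Scg5, Tph1 and Neurod1 stayed below it and are given by their values. Fold changes were tested with limma on log2(RPM + 1), with the adjustment over all 10183 genes tested. In that fit 3 of the 6 tested genes were called, all lower in Reg4+ DCS cells, where 34.1% of all tested genes were called in either direction and 26.9% were called lower. The count of genes called higher in Reg4+ DCS cells was 0 of 6 (0 at an unadjusted p under 0.05, and 0 with edgeR), against 7.18% of all tested genes with limma and 13.7% with edgeR. Both Reg4+ DCS libraries lay below both Lgr5+ libraries for 4 of the 6 tested genes, against 56.2% of all tested genes, and for 8 of all 10, against 58.7% of the whole table. The share of the 6 is near that background. Among genes not listed at 0, the median log2 fold change was −0.96 over 5 members and −0.46 over 10117 tested genes. The median of all 10183, −0.47, was 0.02 after median-of-ratios scaling, under which Chga, Ddc and St18 were again called, against 12.7% of all tested genes called lower and 15.6% called higher (edgeR 13.4% called lower).

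The zeros of the table need care. A gene at 0 in one Reg4+ DCS column was nearly always at 0 in the other (1641 genes in both, 8 in one column alone), although many genes had a single read. In the Lgr5+ columns 479 genes had 1 read in replicate 1, and 0 of these were at 0 in replicate 2. Zeros were thus shared between replicates, and the values of either Reg4+ DCS column decoded as the average of 2 parts scaled on their own, each part with its own shared zeros. A gene at 0 is therefore given only as listed at 0, with no fold change.

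Chga, chromogranin A, the granule matrix protein widely used as a marker of endocrine cells (chromosome 12, 102554969 to 102565028, plus strand, GRCm38), stood at 0.989 and 1.98 RPM in Reg4+ DCS libraries 1 and 2 and at 9.41 and 7.16 RPM in Lgr5+ libraries 1 and 2. These rest on 9 and 11 reads in Reg4+ DCS against 49 and 57 reads in Lgr5+ libraries. The populations did not overlap. The mean of 1.49 ± 0.703 RPM in Reg4+ DCS cells was 5.58-fold lower than the 8.29 ± 1.59 RPM in Lgr5+ cells (SD, n = 2 each), and limma gave a log2 fold change of −1.92 (SE 0.37, adjusted p = 0.00670). The fold ranged from 4.18 without Reg4+ DCS replicate 1 to 8.38 without Reg4+ DCS replicate 2. After median-of-ratios scaling it was 4.01 (log2 fold change −1.55). Leaving out Reg4+ DCS replicate 1 ended the call (adjusted p = 0.0542), and Chga missed the filter without either Lgr5+ library.

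Ddc, aromatic L-amino acid decarboxylase, which completes the synthesis of serotonin and of dopamine (chromosome 11, 11814101 to 11898144, minus strand), was the most abundant of the 10 in every library. It stood at 11.2 and 20.5 RPM in Reg4+ DCS libraries 1 and 2 and at 67.8 and 84.0 RPM in Lgr5+ libraries 1 and 2. The populations were well apart. The means were 15.9 ± 6.59 RPM in Reg4+ DCS cells, against 75.9 ± 11.4 RPM in Lgr5+ cells (SD, n = 2 each), 4.78-fold lower in Reg4+ DCS cells. The limma log2 fold change was −2.24 (SE 0.33, adjusted p = 0.00204). After median-of-ratios scaling Ddc was 3.45-fold lower (log2 fold change −1.75). Ddc was called without any 1 of the 4 libraries, and it was the single member with that property.

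The sequences before the transcription start are shown for Chga and Ddc, the called granule and amine genes, and for Gcg, whose replicates lay far apart. Each is the 150 bases before the RefSeq start on GRCm38.p6, 5′ to 3′ in the direction of transcription. Capitals mark CAGATG and CAGCTG, E-box forms of the kind bound by basic helix-loop-helix factors such as Neurod1, and TGACG, the core of the cyclic AMP response element.
Chga, chr12:102554791-102554940, plus strand: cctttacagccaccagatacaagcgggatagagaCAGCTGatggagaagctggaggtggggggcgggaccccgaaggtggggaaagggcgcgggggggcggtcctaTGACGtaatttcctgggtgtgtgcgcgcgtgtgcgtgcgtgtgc
Ddc, chr11:11898145-11898294, minus strand: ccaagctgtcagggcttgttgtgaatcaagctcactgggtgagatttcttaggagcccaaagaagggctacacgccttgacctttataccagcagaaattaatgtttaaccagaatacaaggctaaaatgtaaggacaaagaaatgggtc
Gcg, chr2:62483654-62483803, minus strand: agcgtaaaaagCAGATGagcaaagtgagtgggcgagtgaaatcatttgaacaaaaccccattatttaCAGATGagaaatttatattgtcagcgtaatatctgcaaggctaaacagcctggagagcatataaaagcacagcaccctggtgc

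Both strands were searched, over 11 RefSeq starts of the 8 members that the promoter table holds. Gcg had CAGATG at 139 and at 83 bases before its start, and no other member held it in this window, where 8.81% of all 32851 promoters did. Chga had CAGCTG at 116 bases before the start (8.39% of all promoters) and TGACG at 44 bases. TGACG also lay before Chgb and before both starts of Tph1, 4 of the 11 starts in all, against 13.3% of all promoters. In Chgb it was part of the full palindrome TGACGTCA, which 1.36% of promoters held and which contains TGACG on both strands. The Ddc window held none of these letters. These are matches of letters, and no binding was measured.

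**Figure D2:**
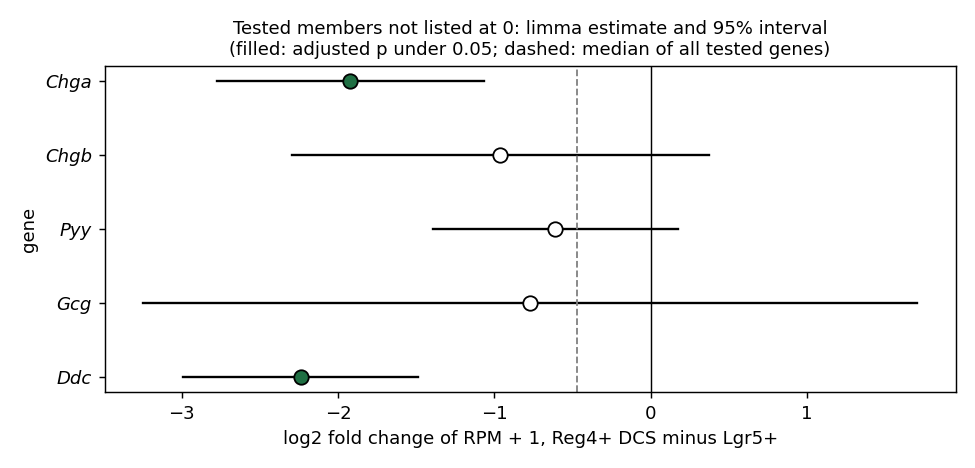
Limma log2 fold change of RPM + 1 (x axis, Reg4+ DCS minus Lgr5+; points) with its 95% interval (lines) for the 5 tested genes not listed at 0 (St18 is left out). Filled points (Chga and Ddc) had an adjusted p under 0.05, the intervals of Chgb, Pyy and Gcg span 0, and the dashed line is the median of all tested genes, −0.47.

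The other granule matrix gene, Chgb, chromogranin B (chromosome 2, 132781278 to 132795079, plus strand), stood at 6.88 and 3.01 RPM in Reg4+ DCS libraries 1 and 2 and at 18.8 and 5.03 RPM in Lgr5+ libraries 1 and 2. The populations overlapped, since Reg4+ DCS library 1 lay above Lgr5+ library 2. The log2 fold change was −0.96 (95% interval −2.30 to 0.37, limma adjusted p = 0.223). Leaving out a library moved this widely, to −0.10 without Lgr5+ replicate 1 (adjusted p = 0.923), −0.47 without Reg4+ DCS replicate 2 (0.631), −1.45 without Reg4+ DCS replicate 1 (0.217) and −1.82 without Lgr5+ replicate 2 (0.0134, called lower in Reg4+ DCS cells). Fits without a library have 1 library in a population, which is assumed to vary like the other population.

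Of the prohormone processing members, Cpe, carboxypeptidase E, which trims basic residues from cut prohormones (chromosome 8, 64592542 to 64693054, minus strand), stood at 0.362 and 0.166 RPM in Reg4+ DCS libraries 1 and 2 and at 2.50 and 3.77 RPM in Lgr5+ libraries 1 and 2, from 4 and 1 reads in Reg4+ DCS against 13 and 30 reads in Lgr5+ libraries. In part 2 of both Reg4+ DCS columns it was listed at 0. With part 1 alone, its mean was 0.529 ± 0.277 RPM in Reg4+ DCS cells against 3.13 ± 0.901 RPM in Lgr5+ cells (SD, n = 2 each), 5.93-fold lower. With both parts it was 11.9-fold lower, and 8.66-fold to 18.8-fold lower without 1 library. Scg5, the 7B2 protein that chaperones the convertase Pcsk2 (chromosome 2, 113776362 to 113829121, minus strand), had a listed value of 0 in Reg4+ DCS libraries 1 and 2, and stood at 1.34 and 0.629 RPM in Lgr5+ libraries 1 and 2 (7 and 5 reads). Scg5 was thus seen at a handful of reads, and Cpe at no more than 30 reads in any library.

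Neither hormone precursor passed the test. Pyy, which encodes peptide YY, an appetite-lowering hormone of L cells (chromosome 11, 102106676 to 102107832, minus strand), stood at 7.94 and 14.0 RPM in Reg4+ DCS libraries 1 and 2 and at 17.1 and 16.2 RPM in Lgr5+ libraries 1 and 2. The populations did not overlap, but the gap was small. The log2 fold change was −0.61 (95% interval −1.39 to 0.17, limma adjusted p = 0.192), and −0.14 after median-of-ratios scaling (adjusted p = 0.755). Within Reg4+ DCS library 1 the 2 parts held 0.543 and 15.3 RPM of Pyy, and within library 2 they held 17.3 and 10.6 RPM. The average of Reg4+ DCS library 1 thus joined a part with 3 reads and a part with 29 reads.

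Gcg, the precursor of glucagon-like peptides in L cells (chromosome 2, 62474530 to 62483650, minus strand), stood at 1.06 and 6.55 RPM in Reg4+ DCS libraries 1 and 2 and at 23.1 and 0.880 RPM in Lgr5+ libraries 1 and 2. The populations overlapped, with Lgr5+ library 1 the highest and Lgr5+ library 2 the lowest of the 4. The Lgr5+ libraries differed 26.2-fold, from 120 reads (95% exact Poisson interval 19.1 to 27.6 RPM) against 7 reads (0.354 to 1.81 RPM), intervals that cover counting error only. Of all tested genes 0.0491% differed at least as much between the Lgr5+ libraries, and 0.334% differed at least as much as Gcg did between the Reg4+ DCS libraries. Part 1 of both Reg4+ DCS columns listed Gcg at 0, and part 2 held 2.12 and 13.1 RPM. The log2 fold change was −0.77 (95% interval −3.25 to 1.70, limma adjusted p = 0.595). Its direction rested on Lgr5+ library 1: without it the mean RPM in Reg4+ DCS cells was 4.32 times that of the remaining Lgr5+ library, and Gcg was below the filter. It also turned, to 0.17, without Reg4+ DCS replicate 1 (adjusted p = 0.946). Without Lgr5+ replicate 2 the log2 fold change was −2.61, with the high library as the only Lgr5+ one. The Reg4+ DCS libraries, the replicates left in that fit, lay far apart. Their spread was moderated by limma toward the trend of all tested genes.

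**Figure D3:**
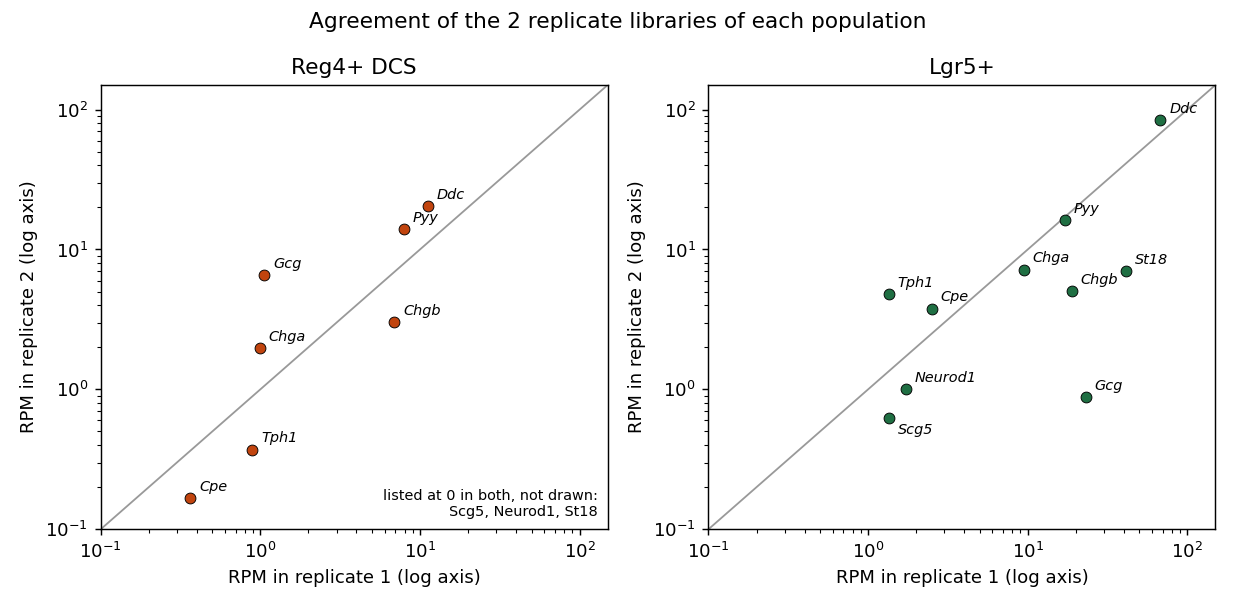
RPM of each gene in replicate 1 (x axis) and replicate 2 (y axis), both logarithmic, in Reg4+ DCS cells (left) and Lgr5+ cells (right); the line marks equal values, and Scg5, Neurod1 and St18 are not drawn for Reg4+ DCS cells, where they are listed at 0. Gcg lies farthest from the line in both populations, on opposite sides, at 1.06 and 6.55 RPM in Reg4+ DCS libraries 1 and 2 and at 23.1 and 0.880 RPM in Lgr5+ libraries 1 and 2.

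Tph1, tryptophan hydroxylase, the rate-limiting enzyme of serotonin synthesis in enterochromaffin cells (chromosome 7, 46644641 to 46672537, minus strand), stood at 0.891 and 0.371 RPM in Reg4+ DCS libraries 1 and 2 and at 1.34 and 4.78 RPM in Lgr5+ libraries 1 and 2. It rested on 6 and 2 reads in Reg4+ DCS against 7 and 38 reads in Lgr5+ libraries and was not tested. The order of the Lgr5+ libraries was opposite to that of Gcg, with library 2 3.55-fold above library 1.

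Neurod1, the basic helix-loop-helix factor of endocrine differentiation (chromosome 2, 79452521 to 79456751, minus strand), had a listed value of 0 in Reg4+ DCS libraries 1 and 2, and stood at 1.73 and 1.01 RPM in Lgr5+ libraries 1 and 2, from 9 and 8 reads. St18, a zinc finger factor of the Myt1 family (chromosome 1, 6487231 to 6860940, plus strand), also had a listed value of 0 in Reg4+ DCS libraries 1 and 2, against 41.1 and 7.04 RPM in Lgr5+ libraries 1 and 2 (214 and 56 reads). Both libraries of Lgr5+ cells held St18, with library 1 5.84-fold above library 2. It was called lower in Reg4+ DCS cells with limma (adjusted p = 0.00321), and it missed the filter without either Lgr5+ library. The spread of its Reg4+ DCS values is that of shared zeros, which enters this test.

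Ordered by mean level, the Reg4+ DCS cells held Ddc, Pyy, Chgb, Gcg, Chga, Tph1 and Cpe, from 15.9 to 0.264 RPM, ahead of those listed at 0. The replicate ranges of Ddc and Pyy overlapped (15.9 ± 6.59 and 10.96 ± 4.27 RPM, SD, n = 2 each), as did those of Chgb and Gcg and of Gcg and Chga, while Pyy lay above Chgb, Chga above Tph1 and Tph1 above Cpe in both libraries. In Lgr5+ cells the order was Ddc, St18, Pyy, Gcg, Chgb, Chga, Cpe, Tph1, Neurod1 and Scg5, from 75.9 to 0.987 RPM. Ddc stood apart from the next gene, St18 (24.1 ± 24.1 RPM), and the ranges of St18, Pyy, Gcg, Chgb and Chga overlapped from each to the next. Chga lay above Cpe in both libraries, and the ranges of Cpe, Tph1, Neurod1 and Scg5 again overlapped from each to the next. Among 10182 other tested genes, the pattern of Chga over the 4 libraries was most like those of Nop56, Ncapd3, Lad1, Nlrp1a and Tenm4, by the Euclidean distance of centred log2(RPM + 1), from 0.11 to 0.14. Ddc was the nearest member, at rank 400 (distance 0.59). These likenesses rest on 4 libraries of 2 populations.

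Other genes of the endocrine pathway were read from 5 lists. Of 96 genes listed, 63 were in the table and 29 were tested, with 10 called higher and 8 called lower in Reg4+ DCS cells (background 7.18% and 26.9%) and a median log2 fold change of −0.10 over the 28 not listed at 0. Of the 8 called lower, 4 (Rfx3, Maob, Cacna1a and Ffar3) reached the filter through the Lgr5+ columns alone, which already required them to be higher there; of the 10 called higher, 0 reached it through the Reg4+ DCS columns alone. Without Reg4+ DCS replicate 2 the count called higher was 6. The count called lower was 3 without Lgr5+ replicate 1 and 4 without Lgr5+ replicate 2.

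Hormones and transmitter peptides other than the members did not pass. Of 15, 7 were in the table and 3 were tested, with 0 called by limma, 0 at an unadjusted p under 0.05 and 0 by edgeR. Insl5, an insulin-like hormone of colonic L cells, stood at 9.37 and 15.0 RPM in Reg4+ DCS libraries 1 and 2 against 19.0 and 16.8 RPM in Lgr5+ libraries 1 and 2 (log2 fold change −0.56, adjusted p = 0.209). Sct, the secretin precursor, stood at 8.20 and 9.37 RPM in Reg4+ DCS against 33.4 and 9.30 RPM in Lgr5+ libraries (−0.95, adjusted p = 0.185), so that Lgr5+ library 1 was again the high one. Tac1, the precursor of substance P, stood at 16.7 and 21.3 RPM in Reg4+ DCS cells against 17.3 and 32.4 RPM in Lgr5+ cells (−0.32, adjusted p = 0.4999). Sct was −1.82 without Lgr5+ replicate 2 (adjusted p = 0.00229, called lower in Reg4+ DCS cells) and −0.08 without Lgr5+ replicate 1 (0.928), and it was not called without Reg4+ DCS replicate 1 (0.432) or 2 (0.3003).

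Among processing and granule proteins, which other secretory cells also use, 11 of 27 were tested, 6 were called higher and 2 lower in Reg4+ DCS cells, with a median of 0.84. Ptprn2, a phosphatase-like protein of dense-core granules, stood at 110.2 and 114 RPM in Reg4+ DCS libraries 1 and 2 against 7.49 and 4.65 RPM in Lgr5+ libraries 1 and 2, 18.5-fold higher (log2 fold change 4.03, SE 0.29, adjusted p = 0.000174). Syt7, a synaptotagmin that senses calcium at exocytosis, was 14.9-fold higher in Reg4+ DCS cells (10.8-fold to 24.0-fold without 1 library). It stood at 513 and 517 RPM in Reg4+ DCS against 47.8 and 21.5 RPM in Lgr5+ libraries. Rab27b, a GTPase of secretory granules, was 3.94-fold higher, at 89.0 and 84.7 RPM in Reg4+ DCS against 24.0 and 20.1 RPM in Lgr5+ libraries. All of these separated the populations fully. In the other direction went Pam, which amidates peptide hormones such as peptide YY, at 17.2 and 8.94 RPM in Reg4+ DCS cells against 97.4 and 65.4 RPM in Lgr5+ cells (6.23-fold lower, adjusted p = 0.00163). Cplx2, a complexin, was 2.06-fold lower with an adjusted p of 0.0422 that became 0.203 after median-of-ratios scaling, 0.163 with edgeR and 0.0503 to 0.225 when any 1 library was left out. Pcsk1, the convertase that cuts proglucagon, was below the filter at 2.05 and 1.36 RPM in Reg4+ DCS cells, against 2.88 and 1.01 RPM in Lgr5+ cells, with overlap.

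The transcription factor list had 3 of 21 genes tested. Foxa1, a forkhead factor of gut epithelium, was 1.57-fold higher in Reg4+ DCS cells (adjusted p = 0.0475, and 0.104 to 0.166 without any 1 library), and Rfx3 was 11.8-fold lower, at 0.362 and 1.33 RPM in Reg4+ DCS against 9.99 and 10.1 RPM in Lgr5+ libraries (adjusted p = 0.00204), having passed the filter through the Lgr5+ columns alone. Leaving out Reg4+ DCS replicate 2 gave a 27.7-fold difference in Rfx3, and leaving out replicate 1 gave 7.53-fold. Foxa2 did not pass (log2 fold change 0.10, adjusted p = 0.778). Of the 16 in the table, 8 had listed values of 0 in both Reg4+ DCS libraries, among them the serotonin cell factor Fev, at 0.576 and 1.63 RPM in Lgr5+ libraries 1 and 2. Insm1, a zinc finger repressor required for endocrine differentiation, stood at 0.529 and 0.205 RPM in Reg4+ DCS cells, against 3.27 and 1.76 RPM in Lgr5+ cells, below the filter.

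Of 13 amine genes, 8 were tested, with 1 called higher and 3 called lower in Reg4+ DCS cells. Maoa and Maob, the monoamine oxidases that break down serotonin and dopamine, were 4.25-fold and 5.15-fold lower in Reg4+ DCS cells, Maoa at 83.5 and 73.0 RPM in Reg4+ DCS against 397 and 267 RPM in Lgr5+ libraries. Slc6a4, the serotonin transporter, which epithelial cells use to take up serotonin, was 4.603-fold lower in Reg4+ DCS cells (3.19-fold to 8.27-fold without 1 library). It stood at 4.36 and 11.3 RPM in Reg4+ DCS against 35.0 and 37.1 RPM in Lgr5+ libraries. The limma adjusted p was 0.00112, 0.00432 and 0.00569 for Maoa, Maob and Slc6a4, of which Maob passed the filter through the Lgr5+ columns alone. Qdpr, which regenerates the cofactor of tryptophan hydroxylase, was 1.72-fold higher (adjusted p = 0.0272, and 0.0677 to 0.0961 without any 1 library). Slc18a1, which loads amines into granules of enterochromaffin cells, was below the filter at 3.56 and 2.82 RPM in Reg4+ DCS cells against 1.73 and 0.880 RPM in Lgr5+ cells, the reverse of the order of Ddc and Tph1.

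All 4 tested genes of the 20 sensors and excitability genes were called, 2 in each direction, against 34.1% of all tested genes called in either direction. Both called lower (Ffar3 and Cacna1a) had passed the filter through the Lgr5+ columns alone. The receptors Ffar2 and Ffar4, for short-chain and long-chain fatty acids, were 9.85-fold and 9.51-fold higher in Reg4+ DCS cells, at 94.0 and 126.5 RPM in Reg4+ DCS against 14.6 and 7.79 RPM in Lgr5+ libraries for Ffar2 and at 176 and 140 RPM in Reg4+ DCS against 17.1 and 16.1 RPM in Lgr5+ libraries for Ffar4. Ffar3, another receptor for short-chain fatty acids, had a listed value of 0 in Reg4+ DCS libraries 1 and 2, and stood at 71.1 and 22.1 RPM in Lgr5+ libraries 1 and 2 (adjusted p = 0.000363). Shared zeros enter its test, as they do for St18. Cacna1a, a subunit of voltage-gated calcium channels, was 5.74-fold lower in Reg4+ DCS cells (limma adjusted p = 0.00583, and 3.85-fold to 11.3-fold without 1 library).

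**Figure D4:**
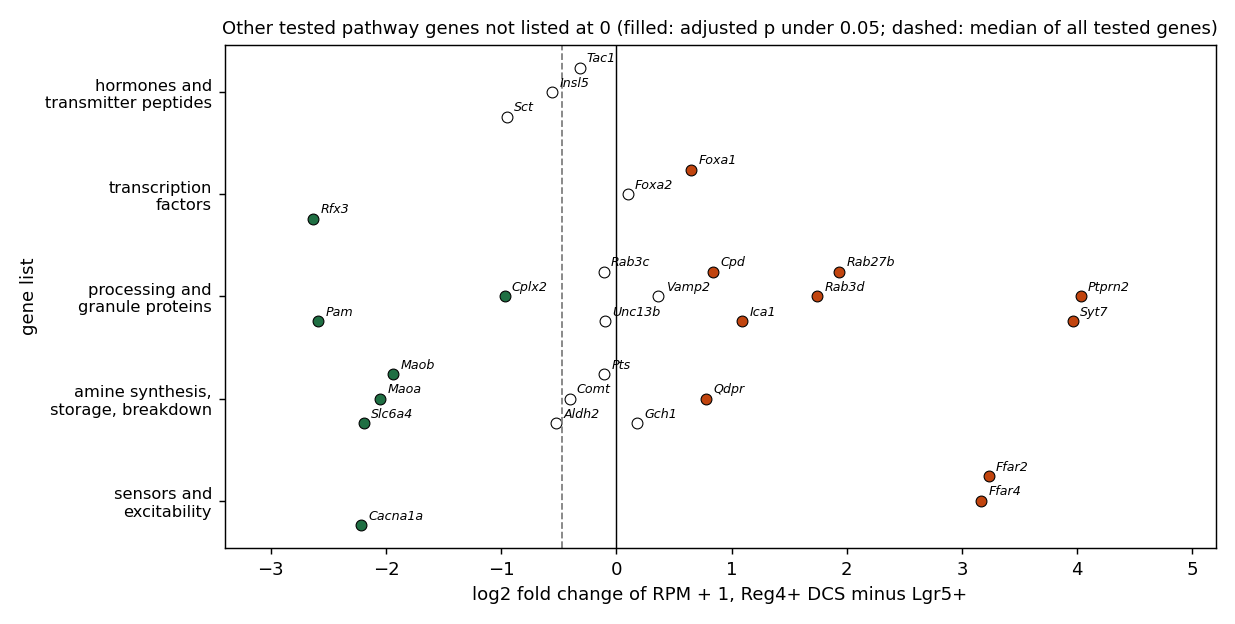
Limma log2 fold change of RPM + 1 (x axis, Reg4+ DCS minus Lgr5+) of the 28 tested genes of the 5 lists (y axis) that are not listed at 0, which leaves out Ffar3. Filled points, 10 to the right of 0 and 7 to the left, had an adjusted p under 0.05; points within a list are offset vertically for legibility, and the dashed line is the median of all tested genes, −0.47.

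Marker genes placed these levels beside those of other cells. Of 8 enteroendocrine markers, 6 were in the table and summed to 8.39 and 5.19 RPM in Reg4+ DCS libraries 1 and 2 and 34.2 and 16.8 RPM in Lgr5+ libraries 1 and 2. Fev, Neurod1 and Scgn had listed values of 0 in both Reg4+ DCS libraries, Scgn stood at only 0.384 and 0.251 RPM in Lgr5+ libraries 1 and 2, and Chgb made up most of the Reg4+ DCS sum. Goblet markers summed to 177316 and 109431 RPM in Reg4+ DCS and 4535 and 1338 RPM in Lgr5+ libraries, and crypt base stem markers to 246 and 416 RPM in Reg4+ DCS against 896 and 1060.04 RPM in Lgr5+ libraries. Slc12a2 made up most of the stem sum in Reg4+ DCS libraries, at 218 and 369 RPM against 352 and 405 RPM in Lgr5+ libraries. The other stem markers lay further apart, from Cdca7 (12.6 and 23.9 against 143 and 189 RPM) to Smoc2 (4.72 and 4.20 against 179 and 218 RPM). Tuft cell markers (7 of 8 in the table) summed to 2.30 and 1.98 RPM in Reg4+ DCS libraries and 1015 and 299 RPM in Lgr5+ libraries, with Alox5ap, Gfi1b and Pou2f3 among those listed at 0 in Reg4+ DCS cells. Lgr5+ library 1 was above library 2 for tuft (3.39-fold), goblet (3.39-fold) and absorptive markers (4.14-fold). It was also above for enteroendocrine (2.03-fold), enteric neuron and glia (1.83-fold), epithelial (1.23-fold), stroma and vessel (1.18-fold) and leukocyte markers (1.08-fold). The leukocyte sum joined opposite orders, with Ptprc at 40.1 and 9.55 RPM and Cd74 at 13.4 and 40.5 RPM in Lgr5+ libraries 1 and 2. The ratio for crypt base stem markers was 0.845. Of the 10 genes, 7 were higher in library 1, St18, Gcg and Chgb among them, and 3 were higher in library 2 (Ddc, Cpe and Tph1). No share of all genes is set beside these counts. Leukocyte markers (4 of 6 in the table) summed to 1.61 and 1.52 RPM in Reg4+ DCS against 56.1 and 52.04 RPM in Lgr5+ libraries, and those of enteric neurons and glia (5 of 9) to 0.453 and 0.499 RPM in Reg4+ DCS against 5.76 and 3.14 RPM in Lgr5+ libraries, with Cd3e, Cd79a and Ptprc, and Elavl4, Prph, Ret and Tubb3, at 0 in Reg4+ DCS cells. The part of other cell types in the results for the 10 genes was not tested. Reg4 stood at 6187 and 5899 RPM in Reg4+ DCS against 796 and 363 RPM in Lgr5+ libraries and Lgr5 at 0.989 and 3.13 RPM in Reg4+ DCS against 46.5 and 48.8 RPM in Lgr5+ libraries, so that the sort markers followed the labels.

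**Figure D5:**
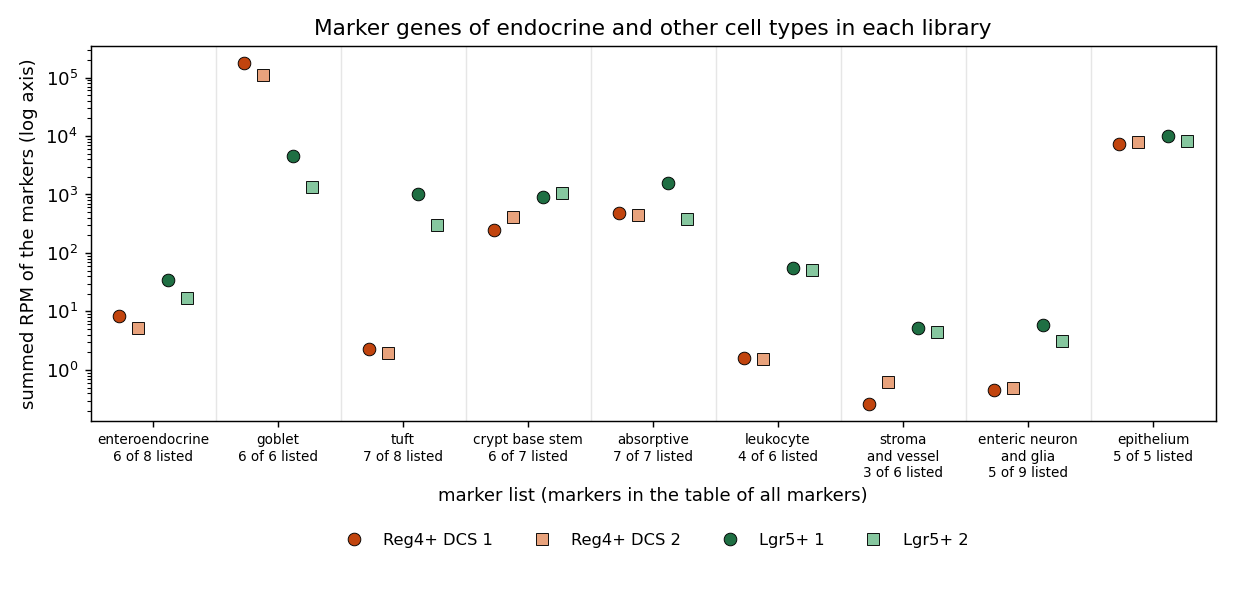
Summed RPM of marker genes (y axis, logarithmic) of each cell type (x axis, with how many markers the table lists) in the 4 libraries. Enteroendocrine markers sum to 8.39 and 5.19 RPM in Reg4+ DCS libraries 1 and 2 and 34.2 and 16.8 RPM in Lgr5+ libraries 1 and 2, far below the goblet and epithelial markers of either.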

How the data were processed

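RNA of 2 Reg4+ DCS and 2 Lgr5+ libraries was prepared by CEL-seq and sequenced as paired-end reads, per the labels' protocols. BWA 0.6.2-r126 and the mm10 build are named in the submitters' processing notes. How alignments were assigned to genes, and whether strand or molecular identifiers were used, is not stated there. The authors deposited RPM, which puts every column on 1 common total. Every Lgr5+ value was a whole multiple of 1 read (tolerance 0.01 reads), at depths of 5205723 and 7955340 reads, with 1 read worth 0.192 and 0.126 RPM. Reg4+ DCS values decoded as means of 2 scaled parts of 5523304 and 1890960 reads (replicate 1) and 3004289 and 2443971 reads (replicate 2), uniquely for 99.95% and 99.1% of genes. No label says what the parts were, and a column counted as 1 replicate.

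Genes with at least 5 RPM in at least 2 libraries were fitted with limma 3.58.1 (R 4.3.3, trend) on log2(RPM + 1), a scale that understates changes of low genes, with group as the only term and Benjamini-Hochberg adjustment over all 10183. Calls had an adjusted p under 0.05. P-values rest on the spread of 2 libraries per population, moderated by limma toward its trend over all tested genes. In fits without a library, limma starts from the spread of the other population alone. edgeR 4.0.16 on recovered reads and the alternatives below were run beside it. The fits were tested on simulated data. Named genes were all 10 members and, per list and direction, at most 3 called genes with the largest change, plus genes below the filter, above 0 in all 4 libraries, that pair with a member by role. Insl5, Sct, Tac1, Foxa2 and Fev lie outside this rule and were named after their values were seen. The members and lists were chosen with earlier results of these data known. Coordinates come from GENCODE M21 (GRCm38, the assembly of mm10) and promoters from RefSeq (GRCm38.p6), which held 8 of the 10 members.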

Additional observations from a re-analysis of the deposited data

How the results depend on the processing

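Chga, Ddc and St18 kept their calls with a pseudocount of 0.25, with no filter, with at least 1 RPM in 2 libraries, under median-of-ratios scaling, without a trend, with the replicate block and with edgeR on recovered reads, which was chosen after the data were seen. With no filter, limma also called Cpe (adjusted p = 0.0119), Neurod1 (0.0148) and Scg5 (0.0287) lower in Reg4+ DCS cells. Neurod1 rests on 9 and 8 reads in Lgr5+ libraries 1 and 2, and Scg5 on 7 and 5. Shared zeros enter their tests, as they do for St18 and any other gene without Reg4+ DCS reads. The count of the 10 genes called lower in Reg4+ DCS cells was 6 with no filter, where 3076 of all 14519 genes were called lower. It was 5 with at least 1 RPM in 2 libraries, where 3196 of all genes were called lower. The numbers of genes tested in that setting and without 1 library are not given, so those counts have no background share. Without Lgr5+ replicate 1 Ddc alone was called, and without Lgr5+ replicate 2 Ddc, Chgb and Gcg were. Over all genes 731 were called higher and 2744 lower in Reg4+ DCS cells, which became 1591 and 1297 under median-of-ratios scaling and 1393 and 1362 with edgeR. Without 1 library they ranged from 349 to 706 and from 1060 to 2288. For the pathway lists the counts higher ranged from 6 to 8 and those lower from 3 to 7 without 1 library, and with no filter 15 were called lower. The Gcg log2 fold change ranged from −2.61 without Lgr5+ replicate 2 to 0.17 without Reg4+ DCS replicate 1, where its direction turned; without Lgr5+ replicate 1 it was below the filter, with a ratio of mean RPM, Reg4+ DCS over Lgr5+, of 4.32. The cause of these shifts was not tested, beyond genes entering or leaving the filter. The labels do not say that a replicate number marks a shared round of sorting, and same-numbered libraries deviated together at r = 0.21 over 10183 genes; with the replicate block 910 genes were called higher and 3534 lower in Reg4+ DCS cells, and 4 members were called lower, as Chgb joined them (adjusted p = 0.0410). At no more than 57 reads for Cpe, Scg5, Tph1, Neurod1 and Chga per library, the read number limits what can be seen.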
